A study of Mus musculus with 13 samples.

Results

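The genes described here are 10 textbook targets that the glucocorticoid receptor (GR, the product of *Nr3c1*) induces in many tissues, *Fkbp5*, *Tsc22d3*, *Klf9*, *Per1*, *Zbtb16*, *Sgk1*, *Dusp1*, *Errfi1*, *Nfkbia* and *Ddit4*. They were taken by symbol from the count table, where all 10 have a row among 55335 genes. GR is a ligand-activated transcription factor that is held in the cytoplasm by HSP90 and its co-chaperones. Once it binds a glucocorticoid it enters the nucleus, binds DNA at glucocorticoid response elements or through other factors, and raises the transcription of genes that damp inflammation, growth factor signalling and its own activity. *Fkbp5* and *Tsc22d3* serve in many cell types as readouts of this activity.

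GFP-positive germ cells carrying the Tg(Pou5f1-EGFP)2Mnn transgene were isolated by FACS from the ovary pair of 1 embryo per library at E17.5, and RNA was measured by 3′ tag sequencing in 13 female libraries. In the constitutive cross, GR KO/+ parents gave WT (n = 3) and GR KO/KO (KO, n = 3) embryos, in which exon 3 of *Nr3c1* is deleted in every cell, germ cells and soma alike. In the conditional cross, GR flox/flox parents gave Cre-negative controls (flox, n = 3) and embryos that carry the Pou5f1-CreERT2 allele (cKO, n = 4), in which recombination depends on cells that express *Pou5f1* when tamoxifen is present. All dams of the conditional cross received 125 μg / g tamoxifen at E10.5, so flox and cKO share the exposure, whereas WT and KO had none. The crosses therefore differ in alleles and tamoxifen together, and these cannot be told apart. No glucocorticoid was given to any of these dams, so the values are levels under the embryos' own hormone.

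*Nr3c1* was read in every library. The counts were 104, 61 and 216 in the WT embryos and 90, 54 and 167 in the KO embryos. They were 110, 105 and 215 in flox and 171, 124, 82 and 211 in cKO. The genotypes overlapped in both crosses, the log2 fold change being 0.00 (standard error 0.53) in the constitutive cross and −0.32 (0.50) in the conditional one. The mean was 44.6 CPM in both WT and KO, so the count of *Nr3c1* did not separate the genotypes. The row covers the whole gene, 3′ tag libraries are made from the 3′ end of transcripts, and where in the gene the reads lie was not analysed here. This count therefore does not check the deletion of exon 3, and the genotypes are those of the labels. Libraries held 2048706 to 3674989 counts on genes. Markers of fetal oocytes gave between them 11108 and 18542 CPM (here relative to all counts of a library), with *Sycp3* at 0 in all 13 libraries and the other 9 of 10 present. The paper stained the protein SYCP3 in fetal oocyte nuclei of an earlier stage, so the 0 does not show that *Sycp3* RNA is absent. Why this row held 0 was not tested, and a 0 for another gene need not show absence either. Markers of ovarian somatic cells summed to 72.9 to 175 CPM, with *Tcf21* at 0. Endothelial markers summed to 8.05 to 104 CPM, macrophage markers to 0.404 to 48.9 CPM and erythroid markers to 0 to 1263 CPM, the highest in flox replicate 1.

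The 10 genes lie on chromosomes 4, 9, 10, 11, 12, 17, 19 and X, and the length of each row in the count table equals the whole gene interval on mm10, introns included. The counted interval runs from 2.17 kb for *Ddit4* (chr10:59949669-59951834) to 182 kb for *Zbtb16* (chr9:48654297-48836222). Exons of GENCODE M21 cover 81.0% of the *Ddit4* interval and 49.7% of that of *Nfkbia*, but 2.90% of that of *Zbtb16*. The *Dusp1* interval (chr17:26505590-26562128) is 56.5 kb long, whereas RefSeq gives the gene a length of 2.88 kb, so reads from sequence well outside the RefSeq gene could be counted as *Dusp1*. Other annotated genes overlap 12.9% of the *Fkbp5* interval, 6.89% of that of *Errfi1* and 6.50% of that of *Dusp1*, and how reads in such overlaps were assigned is not given in the sources used here.

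**Figure D1:**
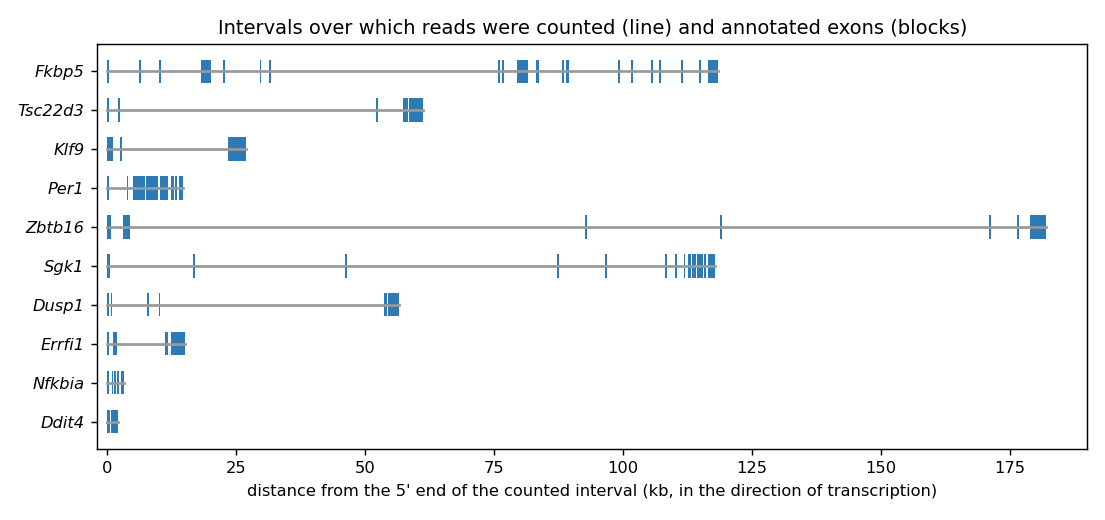
Interval over which reads were counted for each of the 10 genes (grey line) and its annotated exons (blue blocks, drawn at least 0.35 kb wide), against the distance from the 5′ end in kb. *Zbtb16*, *Fkbp5* and *Sgk1* extend over more than 100 kb, mostly intron, while *Ddit4* and *Nfkbia* are the shortest and the most exonic.

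The DNA element through which GR acts directly is a pair of hexamers in opposite orientation, AGAACA and TGTTCT with a spacer of 3 bases of any kind between them. Windows of 300 bases, from 250 bases before to 50 bases after a RefSeq start (GRCm38.p6, the same coordinates as mm10), were at hand for 9 of the 10 genes, with 18 windows in all and none for *Zbtb16*. *Sgk1* had 6 of them, *Tsc22d3* 3, *Per1* and *Errfi1* 2 each and the other genes 1 each, so *Sgk1* had the most room for a match. An exact match to the full element on either strand was found in 3 of 32851 windows (0.00913%), and 1 of these belongs to *Sgk1*. With up to 2 mismatches outside the spacer the element was in 1.84% of all windows and in 2 of the 18, both of *Sgk1*. With up to 3 it was in 14.5% of all windows and in 5 of the 18, where *Dusp1* and *Errfi1* joined *Sgk1*. The hexamer AGAACA alone, which the full element also contains, was in 19.0% of all windows and in 4 of the 18, which belong to *Sgk1* and *Tsc22d3*, a share near that of all windows. A palindromic cyclic AMP response element, TGACGTCA, was in 1.79% of all windows and in 2 of the 18, 1 each of *Dusp1* and *Errfi1*. An E-box, CACGTG, the letters bound by the clock factors, was in 7.15% of all windows and in 4 of the 18, 1 each of *Dusp1*, *Fkbp5*, *Per1* and *Sgk1*. The 4 sites below are shown because they are the exact match to the full element, an AGAACA hexamer in the window of a readout gene, and the cyclic AMP elements of *Dusp1*, the gene whose groups separated, and *Errfi1*. Each is on the strand of its gene, 5′ to 3′, with 6 flanking bases on each side and the matched letters in capitals.
Sgk1, 189 bases before a start, chr10:21993701-21993715, + strand, in an intron of longer transcripts: gcggaaAGAACAgaaTGTTCTcggaga
Tsc22d3, 185 bases before a start, chrX:140600702-140600707, − strand, outside the counted interval: tcgacaTGTTCTaagttc
Dusp1, 143 bases before a start, chr17:26508608-26508615, − strand, in an intron of longer transcripts: ggcgggTGACGTCAccgccc
Errfi1, 51 bases before a start, chr4:150855019-150855026, + strand, in an intron of a longer transcript: gggcgtTGACGTCAcgttgt
These are matches of letters. Binding was not measured in these libraries.

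The first question was whether the targets are lower in germ cells without GR. None of the 10 genes was called in either model by edgeR's quasi-likelihood test at an adjusted p of 0.05, and 0 had an unadjusted p under 0.05. Among all 13086 genes tested, 0% was called in KO against WT and 0% in cKO against flox. At an unadjusted p under 0.05, 761 genes (5.82%) passed in KO against WT and 418 (3.19%) in cKO against flox. DESeq2, run on all genes with a count, called 12 of 15148 genes in the former and 5 of 21551 in the latter, and 0 of the 10. In KO against WT, 5 targets had a log2 fold change below 0 and 5 above 0, with a median of 0.00 beside −0.03 for all genes, of which 51.9% were below 0. That median ran from −0.23 without WT replicate 2 to 0.27 without WT replicate 1. In cKO against flox, 2 targets were below 0 and 8 above 0, with a median of 0.29 beside −0.01 for all genes, of which 50.7% were below 0. It was 0.03 without flox replicate 3 and 0.42 without flox replicate 1. In bulk libraries, fewer cells that express a gene and less RNA per cell cannot be told apart.

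The precision differed widely among the 10 genes. The standard error of the log2 fold change in KO against WT was 0.38 to 0.45 for *Nfkbia*, *Fkbp5*, *Tsc22d3* and *Errfi1*, which had 88 or more counts in every library, and 0.75 for *Ddit4*. It was 1.24 to 2.20 for *Klf9*, *Per1*, *Dusp1*, *Sgk1* and *Zbtb16*. All 20 of these 95% confidence intervals (10 genes in 2 models) spanned 0. In cKO against flox, a fall of 1 on the log2 scale lay outside the interval for *Fkbp5*, *Tsc22d3*, *Errfi1* and *Nfkbia*, and in KO against WT for *Nfkbia*.

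**Figure D2:**
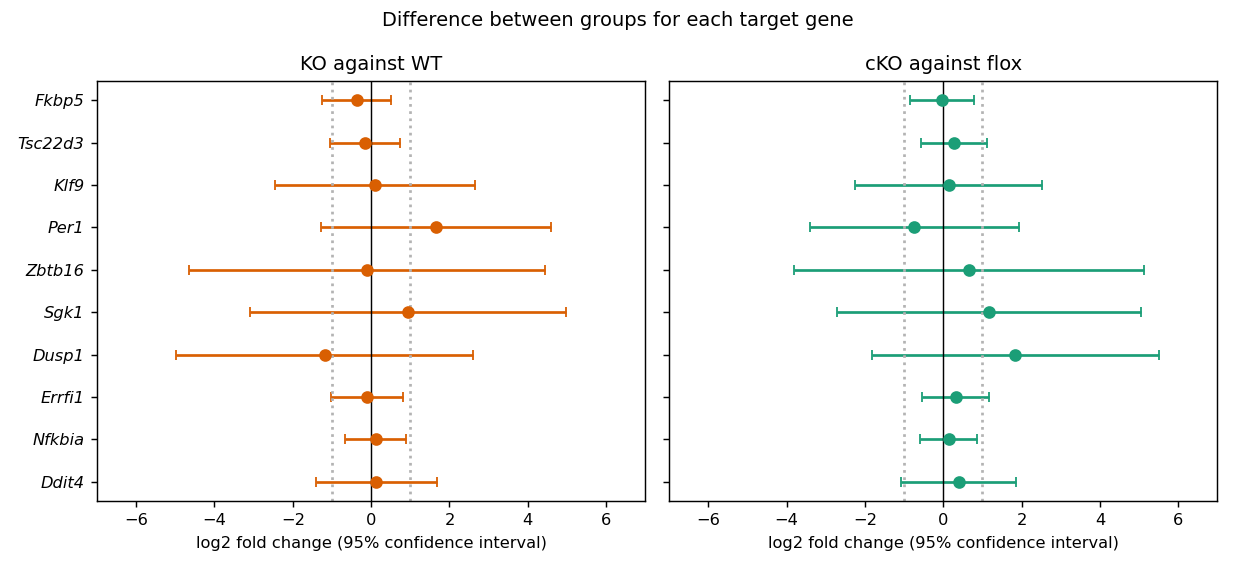
Log2 fold change (points) with its 95% confidence interval (bars) from edgeR for each of the 10 genes, in KO against WT (left) and cKO against flox (right), with dotted lines at −1 and 1. All 20 intervals span 0, and those of *Zbtb16*, *Sgk1* and *Dusp1* are the widest.

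*Fkbp5* encodes a co-chaperone that binds HSP90 and lowers the affinity of GR for its ligand, a feedback loop. Its level was 72.1, 50.6 and 76.1 CPM in the WT embryos and 36.5, 42.8 and 74.8 CPM in the KO embryos (CPM over the genes tested, scaled by TMM). The lowest pair of KO embryos lay below all WT embryos, and the third lay within the WT range. The KO embryos averaged 51.3 ± 20.5 CPM and the WT embryos 66.3 ± 13.7 CPM (SD, n = 3 for each), and the exact permutation test, two-sided, gave p = 0.3 where 0.1 is the smallest this design allows. Without KO replicate 3 the log2 fold change went from −0.37 to −0.74. In the conditional cross *Fkbp5* was at 112.8, 58.6 and 74.2 CPM in the flox embryos and at 98.0, 69.1, 76.4 and 75.2 CPM in cKO. All cKO embryos lay within the range of the flox embryos. The highest value was in flox replicate 1, the library with the highest sum of erythroid markers, and the part of this library's makeup in that value was not tested. Without it the log2 fold change of cKO against flox was 0.26 in place of −0.04.

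The transcriptional regulators among the targets are *Tsc22d3*, *Klf9*, *Per1* and *Zbtb16*. *Tsc22d3* encodes GILZ, a leucine zipper protein that restrains NF-κB and AP-1. It was at 211, 96.0 and 238 CPM in WT and 230.0, 154 and 109 CPM in KO, 2 sets that overlap almost fully (log2 fold change −0.15, standard error 0.43). In flox it was at 115, 206 and 86.8 CPM, and in cKO at 73.4, 264, 147 and 172 CPM. The lowest and the highest of all 13 libraries were both cKO embryos, and the log2 fold change was 0.27 (standard error 0.41).

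*Klf9* encodes a Krüppel-like repressor that is induced by GR in brain, liver and skin. It was at 11.9, 3.34 and 11.7 CPM in WT and 1.14, 8.75 and 19.3 CPM in KO, so that both the lowest and the highest library were KO embryos. In flox it was at 6.34, 15.99 and 7.27 CPM and in cKO at 6.58, 12.1, 11.4 and 13.5 CPM. The group means of *Klf9* ran only from 8.99 ± 4.89 CPM in WT to 10.9 ± 2.99 CPM in cKO, less than the spread in any group.

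*Per1* encodes a repressor of the circadian clock that responds to glucocorticoids within hours. It had 1, 5 and 35 counts in WT and 48, 9 and 38 counts in KO, which is 0.442, 2.39 and 9.52 CPM against 18.2, 4.38 and 16.7 CPM. Both of the highest values were in KO embryos, but KO replicate 2 lay within the WT range. The log2 fold change was 1.65 (standard error 1.42, 95% interval −1.29 to 4.58), the farthest from 0 of the 10 in this comparison (edgeR quasi-likelihood, adjusted p 0.983, and exact permutation test, two-sided, p = 0.2). Without WT replicate 3 it was 3.19. In the conditional cross *Per1* was at 3.38, 9.33 and 15.5 CPM in flox and 5.89, 6.25, 4.04 and 6.21 CPM in cKO. The cKO embryos kept to a narrow range inside that of flox, and the log2 fold change was −0.74 (standard error 1.29).

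*Zbtb16* encodes PLZF, a zinc finger repressor that marks the spermatogonial stem cells of the male germline and is strongly induced by GR in many cultured cells. It had 33, 3 and 2 counts in WT and 1, 11 and 22 counts in KO. Each genotype held both low and high embryos. In the conditional cross it had 2, 0 and 0 counts in flox and 0, 5, 0 and 0 counts in cKO. With 5 of 7 libraries at 0 and a count of 0 allowing up to 3 counts, a difference between flox and cKO was not detectable.

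**Figure D3:**
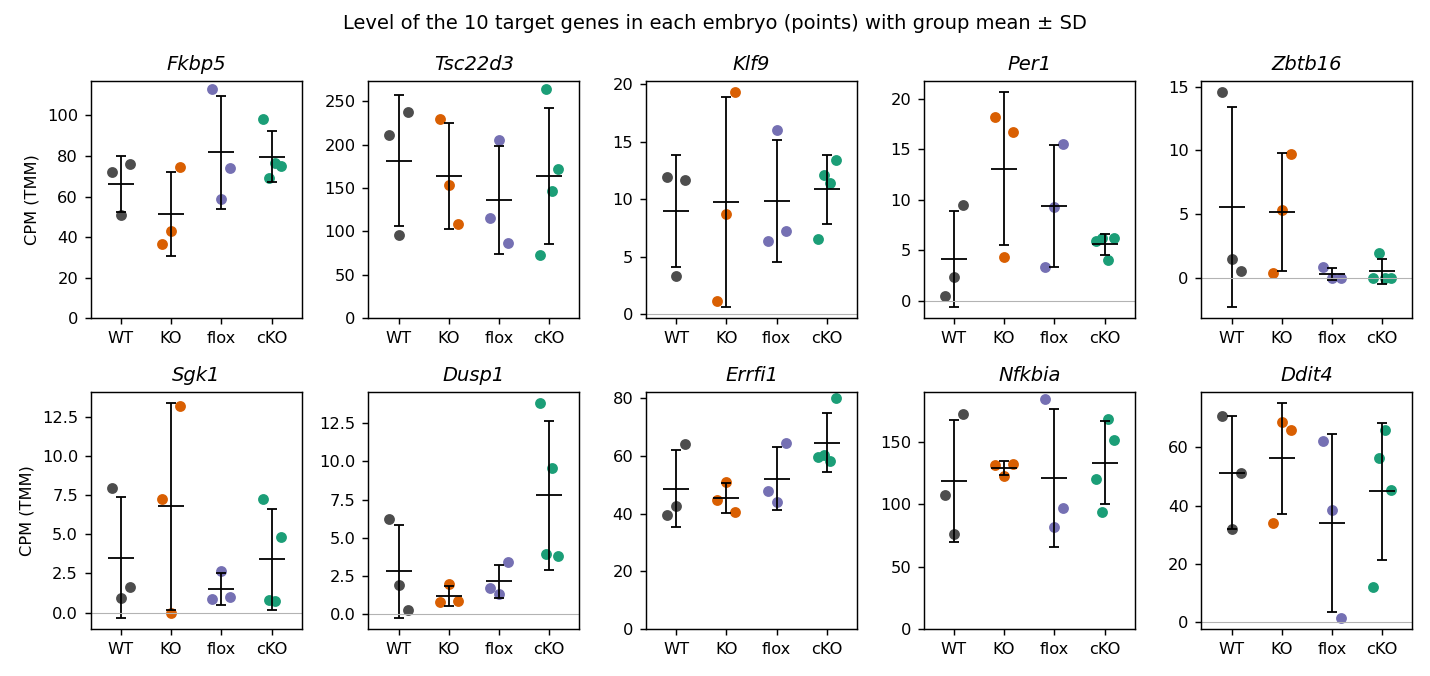
Level of each of the 10 genes in CPM after TMM scaling (vertical axes, linear) in every embryo (points) of the WT, KO, flox and cKO groups, with the group mean and SD (black). Within each cross the groups overlap in every panel, except for *Dusp1* in the conditional cross, where the 4 cKO embryos lie above the 3 flox embryos.

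The enzymes and their regulators are *Sgk1*, *Dusp1* and *Errfi1*. *Sgk1* encodes a serine/threonine kinase that regulates ion transport and cell survival. It had 18, 2 and 6 counts in WT and 19, 0 and 30 counts in KO. In flox it had 2, 6 and 2 counts and in cKO 21, 2, 2 and 14 counts. Each of the WT, KO and cKO groups held embryos at 2 counts or fewer and embryos at 14 or more. The log2 fold change was 0.95 (standard error 1.95) in KO against WT and 1.16 (1.88) in cKO against flox, and both 95% intervals spanned 0.

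*Dusp1* encodes a phosphatase that inactivates MAP kinases. It was the 1 of the 10 genes whose groups did not overlap. It had 4, 3 and 7 counts in flox and 40, 10, 26 and 11 counts in cKO, which is 1.69, 1.33 and 3.39 CPM against 13.9, 3.90, 9.55 and 3.80 CPM. Every cKO embryo lay above every flox embryo, the lowest of them at 3.80 CPM beside the highest flox embryo at 3.39 CPM. The log2 fold change was 1.84 (standard error 1.78, 95% interval −1.83 to 5.51) (edgeR quasi-likelihood, adjusted p 0.9998), and the exact permutation test, two-sided, gave p = 0.0857 where 0.0286 is the smallest this design allows. Groups did not overlap for 4.97% of all genes tested in this comparison, 2.18% with cKO higher, and for 9.46% in KO against WT, where 0 of the 10 separated. *Dusp1* passed the filter on low counts through 3 libraries only, WT replicate 1 and cKO replicates 1 and 3. Those of the conditional cross were all cKO, so passing in this way favoured a higher level in cKO. The separation is therefore not independent of the filter. In the constitutive cross it had 14, 4 and 1 counts in WT and 2, 4 and 2 counts in KO, and the groups overlapped (log2 fold change −1.19, standard error 1.83). Without WT replicate 1 this value was 0.17.

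*Errfi1* encodes an inhibitor of the EGF receptor. It was at 39.4, 42.5 and 64.2 CPM in WT and 44.9, 51.0 and 40.5 CPM in KO. In flox it was at 47.8, 44.0 and 64.5 CPM and in cKO at 59.6, 60.5, 58.4 and 80.1 CPM. Of the cKO embryos 3 lay within the flox range and replicate 4 above it. The cKO embryos averaged 64.6 ± 10.3 CPM (SD, n = 4) and the flox embryos 52.1 ± 10.9 CPM (SD, n = 3), and the exact permutation test, two-sided, gave p = 0.2.

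The signalling inhibitors are *Nfkbia* and *Ddit4*. *Nfkbia* encodes IκBα, which holds NF-κB in the cytoplasm and is itself a target of NF-κB. It was at 108, 76.0 and 172 CPM in WT and 132, 123 and 133 CPM in KO. The KO embryos differed by less from each other than any other group, and lay inside the WT range. In flox it was at 185, 82.2 and 97.0 CPM and in cKO at 120.5, 93.7, 169 and 152 CPM. The log2 fold change was 0.12 (standard error 0.38) in KO against WT and 0.14 (0.35) in cKO against flox, the smallest errors of the 10. The highest value was again in flox replicate 1, and without that library the latter value was 0.58.

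*Ddit4* encodes an inhibitor of mTOR signalling that is induced by hypoxia and stress as well as by GR. It was at 70.8, 32.0 and 51.1 CPM in WT and 34.2, 68.6 and 66.0 CPM in KO. In flox it was at 62.1, 38.7 and 1.45 CPM and in cKO at 12.1, 56.2, 66.1 and 45.2 CPM. Flox replicate 3 held 3 counts of *Ddit4*, whereas the next lowest library, cKO replicate 1, held 35 counts. The log2 fold change of cKO against flox was 0.39 (standard error 0.71) with all libraries and −0.15 without flox replicate 3.

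The second question was whether the models differ, which was tested as cKO against flox minus KO against WT. None of the 10 genes was called in this difference, and 0 had an unadjusted p under 0.05, beside 0% of all genes called and 4.39% with an unadjusted p under 0.05. The difference was 3.03 (standard error 2.55) for *Dusp1* and −2.39 (1.91) for *Per1*, the widest apart, and 0.02 (0.52) for *Nfkbia*. The average of both effects, which compares only within a cross, narrowed the intervals. It was −0.21 for *Fkbp5* (95% interval −0.80 to 0.39), 0.06 for *Tsc22d3* (−0.55 to 0.68), 0.10 for *Errfi1* (−0.53 to 0.74), 0.13 for *Nfkbia* (−0.40 to 0.66) and 0.26 for *Ddit4* (−0.80 to 1.33). On the linear scale the lower bounds of these 5 genes were 0.574, 0.682, 0.694, 0.756 and 0.573 times the level in the controls. For *Klf9*, *Per1*, *Zbtb16*, *Sgk1* and *Dusp1* the interval of the average included a fall of 1 on the log2 scale. None of the 10 was called in the average or had an unadjusted p under 0.05, beside 0% of all genes called and 5.34% with an unadjusted p under 0.05.

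**Figure D4:**
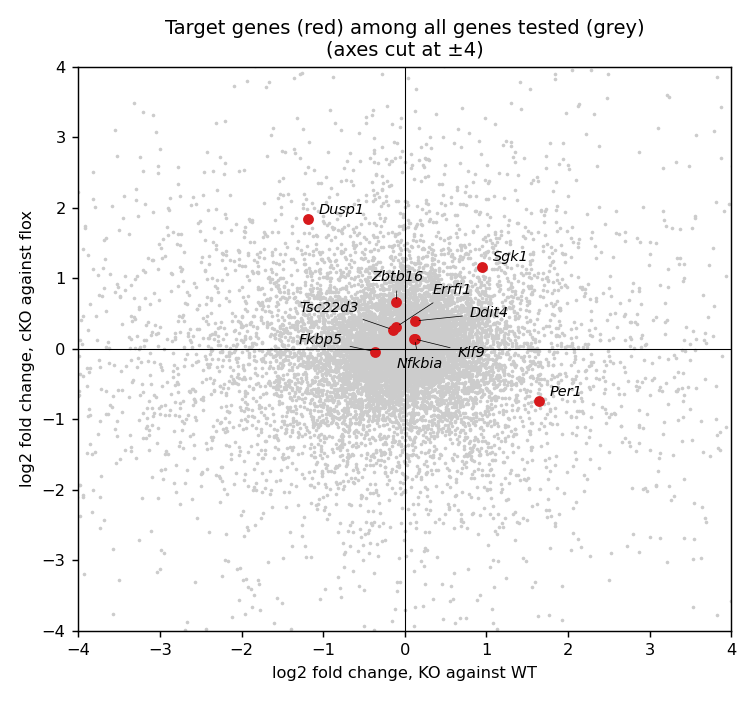
Log2 fold change of KO against WT (horizontal) and of cKO against flox (vertical) for the 10 targets (red) and the other genes tested (grey). Axes end at −4 and 4, which leaves 895 genes outside. *Fkbp5*, *Tsc22d3*, *Errfi1*, *Nfkbia*, *Ddit4* and *Klf9* lie near the centre, and *Per1*, *Dusp1*, *Sgk1* and *Zbtb16*, which have few counts, lie farther out.

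Levels of the targets were also set side by side across the crosses. Of the 10 genes, 1 had an unadjusted p under 0.05 in the mean of flox and cKO against the mean of WT and KO, beside 731 of all genes (5.59%), and 0 were called, beside 1 of all genes (0.00764%). That gene was *Zbtb16*, which had 1 to 33 counts in all 6 embryos of the constitutive cross and was at 0 in 5 of 7 embryos of the conditional cross. The log2 fold change was −3.67 (standard error 1.67, edgeR quasi-likelihood, adjusted p 0.864). It was −2.44 without WT replicate 1 and −5.38 without cKO replicate 2. *Zbtb16* passed the filter on low counts only through WT replicate 1 and KO replicates 2 and 3, all of the constitutive cross, so a gene that passed in this way had to be higher there. *Fkbp5* averaged 81.9 ± 27.9 CPM over flox and 79.7 ± 12.6 CPM over cKO embryos, beside the lower means of WT and KO given above, a log2 difference of 0.47 (standard error 0.29) between crosses (edgeR quasi-likelihood, adjusted p 0.930).

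Other genes of the pathway were taken from lists. Of 24 further genes that glucocorticoids raise in other tissues, 18 could be tested and 0 were called. In KO against WT, 1 had an unadjusted p under 0.05 in each direction, beside 2.36% of all genes higher and 3.45% lower. *Foxo1*, a transcription factor of the insulin pathway, had 455, 258 and 680 counts in WT and 716, 710 and 537 counts in KO, 170 ± 41.1 CPM against 284 ± 55.6 CPM (log2 fold change 0.74, standard error 0.31, adjusted p 0.847 from edgeR's test). The metallothionein *Mt2* had 38, 1 and 0 counts in WT and 0 in every KO embryo, so its difference rests on WT replicate 1. In cKO against flox, 0 of the 18 had an unadjusted p under 0.05. Genes that glucocorticoids repress, mostly cytokines and adhesion molecules, had 9 rows in the table, of which 0 passed the filter on low counts. *Il6* was the highest of these, with 0 to 19 counts.

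Of 17 genes for the receptor, its chaperones, coregulators and the enzymes that activate or inactivate glucocorticoids, 15 could be tested and 0 were called. *Hsp90aa1* averaged 7162 ± 990.3 CPM over WT and 7105 ± 874 CPM over KO embryos (SD, n = 3 for each). In cKO against flox, the co-chaperone gene *Stip1* was at 103 ± 37.6 against 178 ± 38.2 CPM and the coactivator gene *Ncoa2* at 105 ± 31.8 against 166 ± 40.2 CPM. The Mediator subunit gene *Med1* was at 196 ± 36.8 against 116 ± 17.9 CPM. Each of these 3 had an unadjusted p under 0.05 and did not pass adjustment (edgeR, adjusted p 0.9998), beside 1.32% of all genes higher and 1.87% lower in this comparison. *Hsd11b1*, which regenerates active glucocorticoid, was at 0 in all 13 libraries, and *Hsd11b2*, which inactivates it, had at most 3 counts.

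Of 18 related genes of the same families, 14 could be tested and 0 were called. *Dusp5*, another MAP kinase phosphatase, had 0, 5 and 2 counts in WT and 41, 84 and 41 counts in KO. Every KO embryo lay above every WT embryo (log2 fold change 4.63, standard error 1.69, adjusted p 0.847 from edgeR's test). It was the 1 of the 14 with an unadjusted p under 0.05 in this comparison, beside 2.36% of all genes higher and 3.45% lower. Groups also separated for 1 of the 14 with KO lower, and they did not overlap for 9.46% of all genes tested. *Zbtb32* averaged 26.2 ± 14.4 CPM over cKO and 65.2 ± 46.7 CPM over flox embryos (edgeR, adjusted p 0.9998). Immediate-early genes, which share inducers with *Dusp1*, *Per1* and *Nfkbia* and respond to handling of tissue, had 10 members tested and 0 called. Their sum was 79.4 to 109 CPM in WT, 106 to 241 CPM in KO, 118 to 294 CPM in flox and 68.0 to 210.0 CPM in cKO. *Egr1* had 25, 9 and 65 counts in WT and 147, 53 and 83 counts in KO (log2 fold change 1.82, standard error 0.77, adjusted p 0.847). In KO against WT, 7 of the 10 tested had a log2 fold change above 0 and 3 below 0, beside 51.9% of all genes below 0. In cKO against flox, 4 were above 0 and 6 below 0, beside 50.7% of all genes below 0. *Egr1* was at −0.40 (standard error 0.69) in cKO against flox. The part of these genes' inducers in the levels of the targets was not tested.

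Some markers of other cells differed between groups before adjustment of p. Of 11 ovarian somatic markers tested, 5 had a log2 fold change above 0 and 6 below 0 in KO against WT. *Bmp2* and *Nr2f2* were the 2 with an unadjusted p under 0.05 from edgeR's test, both lower in KO. Of all genes, 3.45% were lower and 2.36% higher at this p. *Bmp2* had 0, 3 and 51 counts in WT and 0 in every KO embryo, and 59, 0 and 45 counts in flox and 0, 2, 0 and 0 in cKO. It passed the filter on low counts only through WT replicate 3 and flox replicates 1 and 3. None of these was KO or cKO, so passing in this way favoured a lower level in both. *Nr2f2* was at 31.1 ± 7.01 CPM in KO against 66.6 ± 31.7 CPM in WT. Of 8 erythroid genes 3 could be tested, *Hba-a1*, *Hbb-bs* and *Hbb-bt*. Each was lower in cKO than in flox with an unadjusted p under 0.05 from edgeR's test, beside 1.87% of all genes lower. Their list summed to 284 to 1263 CPM in flox and 78.4 to 199 CPM in cKO, the highest in flox replicate 1. *Hba-a1* had 929 counts in that library and 124 and 151 in the other flox embryos, and *Hbb-bs* had 1598 beside 609 and 227. The macrophage list summed to 10.9 to 19.2 CPM in KO and 4.99 to 48.9 CPM in WT. Within it *Cx3cr1* averaged 1.32 ± 2.28 CPM over KO and 23.2 ± 23.4 CPM over WT embryos, whereas *C1qb* had 17, 22 and 1 counts in KO and 0 in the other 10 libraries. The endothelial list summed to 8.05 to 30.8 CPM in KO and 34.8 to 47.3 CPM in WT, with *Pecam1* and *Tek* tested and neither under an unadjusted p of 0.05. Of 9 oocyte markers tested, 7 had a log2 fold change above 0 in KO against WT. The median of the 9 was 0.20, beside −0.03 for all genes, of which 51.9% were below 0. Every KO embryo lay above every WT embryo for 2 of the 9, *Ddx4* (282 ± 30.7 against 187 ± 25.2 CPM) and *Dazl* (1454 ± 43.1 against 1176 ± 82.3 CPM). Groups did not overlap, in either direction, for 9.46% of all genes tested in this comparison. *Tex101* alone had an unadjusted p under 0.05, with 79.4 ± 36.2 CPM over KO and 149 ± 32.2 CPM over WT embryos. None of these genes was called, and their part in the levels of the targets was not tested.

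The genes whose pattern over the 13 libraries was most like a target were found by Pearson's correlation of log2 CPM among the 7175 genes tested that averaged 50 counts or more. For *Fkbp5* these were *Mrpl52*, *Rpl11* and *Rpl37a*, with r of 0.847, 0.846 and 0.844. For *Tsc22d3* they were *Phka1*, *Slc5a6* and *Snx30*, with r of 0.928, 0.841 and 0.804. These values describe the libraries, which share depth and cell makeup across genes. *Klf9*, *Per1*, *Zbtb16*, *Sgk1* and *Dusp1* averaged fewer than 50 counts and could not appear. Only the highest correlations were listed, so whether the other targets vary with these 2 was not tested.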

How the data were processed

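Reads from 3′ tag libraries (1 library per embryo) had been aligned to mm10 with STAR 2.6.0 and counted per gene with featureCounts 1.6.3 by the authors, and the deposited table holds raw counts with no normalization. The annotation and the strand setting of the counting are not given in the sources used here. No molecular identifiers are described, so standard errors cover the spread between embryos and a count of 0, taken to allow up to 3 counts, covers counting error only. The authors also deposited tables of their own comparisons, with log2 fold changes and p-values for each gene, which were not used. Symbols were taken from GENCODE M21 (54587 of 55335 rows).

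Groups follow the sample labels. Counts were tested with edgeR 4.0.16 in R 4.3.3, by filterByExpr (minimum count 10, minimum total 15, which left 13086 genes), TMM and the quasi-likelihood F test, in 1 fit of 13 libraries with a mean per group. P-values were adjusted by Benjamini-Hochberg over all genes tested and called at 0.05. CPM are counts scaled to the total over the genes tested and the TMM factor, and 1 count is 0.272 to 0.486 CPM. Sums over marker lists are CPM of the library total. Log2 CPM used a prior count of 2. For each target, libraries were also permuted exactly, two-sided, on mean log2 CPM (20 divisions of the constitutive cross and 35 of the conditional cross). DESeq2 1.42.0, limma 3.58.1 (voom), other scalings and filters, a replicate block and the omission of each library were tried. The labels do not state that embryos with the same replicate number are paired. Beside the 10 targets and *Nr3c1*, each list gave at most 4 genes with an unadjusted p under 0.05 in either model, or the highest in CPM where none passed. *Hsp90aa1*, *Hsd11b1*, *Hsd11b2*, *Pecam1*, *Tek*, *C1qb*, *Ddx4*, *Dazl*, *Sycp3* and *Tcf21* were named outside this rule, after their values were seen. The targets, lists and tests were chosen with earlier results of these data known. Promoter windows are from RefSeq.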

Additional observations from a re-analysis of the deposited data

Results flagged for a closer look

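In the cKO group of 4 embryos, 1 embryo stood apart from the others for 3 of the 10 genes, with a gap to the nearest embryo, divided by the range of the group, above Dixon's 95% critical value. For *Errfi1* this ratio was 0.902, with cKO replicate 4 at 80.1 CPM and the other embryos at 58.4 to 60.5 CPM. For *Per1* it was 0.837, with cKO replicate 3 at 4.04 CPM below the others at 5.89 to 6.25 CPM. For *Zbtb16* it was 1, since replicate 2 had 5 counts and the others 0. With all other embryos at 0, any count gives this ratio. For normally distributed values, chance flags about 1 in 20 groups, a rate that need not hold for counts near 0. The groups of 3 embryos were not tested in this way.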

How the results depend on the processing

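No target was called in any of the 102 alternative fits of a comparison, and the cause of any change of sign was not tested. Not all 10 were tested in each: 4 had at least 10 counts in every library, 9 were tested in a fit of KO and WT alone and 7 in one of cKO and flox alone, and 9 without cKO replicate 1 or cKO replicate 3. Counts over all genes did depend on it. DESeq2 called 12, 5, 10, 14 and 35 genes in KO against WT, cKO against flox, the difference of the effects, their average and the comparison of crosses, where edgeR called 0, 0, 0, 0 and 1. DESeq2 was run without the main fit's filter. It gave an adjusted p for 15148, 21551, 12818, 15569 and 20295 genes, beside 13086 for edgeR. The part of the test in these counts was therefore not told apart from that of the filter. Testing every gene with at least 1 count (22038 genes) gave 15, 11, 8, 17 and 35 calls, and at least 10 counts in every library (6561 genes) gave 1 call in the average and 0 between crosses. With 1 library left out, calls ran from 0 to 2 in KO against WT (2 without WT replicate 3), from 0 to 1 in the average (1 without flox replicate 1) and from 1 to 11 between crosses (11 without WT replicate 3 and 4 without KO replicate 3).

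Signs were less stable, and most effects were smaller than their standard errors. Another setting turned 17 of 336 log2 fold changes of the targets. With limma's voom, *Klf9* was −0.56 and *Zbtb16* 0.35 in KO against WT, *Zbtb16* −0.22 in cKO against flox and −0.58 in the difference, *Klf9* −0.18 in the average, and *Per1* 0.24 and *Nfkbia* −0.0144 between crosses. Embryos that share a replicate number had deviations with r of −0.02 to 0.06. Pairs with unlike numbers were not compared and litters are not given, so a pairing can be neither shown nor excluded. With the replicate block, *Klf9* was −0.28 and *Zbtb16* 1.36 in KO against WT, *Fkbp5* 0.00878, *Klf9* −0.0134 and *Sgk1* −0.14 in cKO against flox, *Sgk1* −1.34 and *Nfkbia* −0.12 in the difference, *Klf9* −0.15 in the average, and *Per1* 0.13 and *Nfkbia* −0.00817 between crosses, and the block called 0 of the targets. Omitting 1 library turned 63 of 640 values, of 25 of the 50 results, and *Dusp1* failed the filter in 2 of the 13 omissions. The range of the log2 fold change over these omissions follows for these 25. For KO against WT it was −0.46 to 0.11 for *Tsc22d3*, −0.86 to 0.65 for *Klf9*, −0.93 to 2.35 for *Zbtb16*, −1.72 to 0.17 for *Dusp1*, −0.22 to 0.16 for *Errfi1*, −0.11 to 0.50 for *Nfkbia* and −0.11 to 0.44 for *Ddit4*. For cKO against flox it was −0.23 to 0.26 for *Fkbp5*, −0.0461 to 0.70 for *Tsc22d3*, −0.0887 to 0.67 for *Klf9*, −2.76 to 3.44 for *Zbtb16*, −0.0712 to 0.58 for *Nfkbia* and −0.15 to 1.17 for *Ddit4*. For the difference of the effects it was −0.50 to 1.01 for *Klf9*, −2.65 to 3.53 for *Zbtb16*, −1.19 to 1.12 for *Sgk1*, −0.36 to 0.45 for *Nfkbia* and −0.29 to 1.03 for *Ddit4*. For the average of the effects it was −0.10 to 0.28 for *Tsc22d3*, −0.36 to 0.40 for *Klf9*, −1.43 to 1.67 for *Zbtb16* and −0.00751 to 0.65 for *Ddit4*. For the comparison of crosses it was −0.12 to 0.64 for *Klf9*, −0.31 to 0.75 for *Per1* and −0.17 to 0.23 for *Nfkbia*. The targets with the widest intervals were *Zbtb16*, *Sgk1*, *Dusp1*, *Per1* and *Klf9*, which, like *Ddit4* in flox replicate 3, had 3 counts or fewer in at least 1 library. For the first 5, the within-group variance of CPM was 2.27 to 7.92 times the mean CPM, a ratio that depends on the CPM scale and is not one of counts.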
